A study of Homo sapiens with 6 samples.

Results

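The polyamine genes are the 10 genes whose products make, restrain and break down putrescine, spermidine and spermine: ODC1, AMD1, SRM, SMS, OAZ1, OAZ2, AZIN1, SAT1, SMOX and PAOX. They were taken by name from the deposited gene table, and all 10 were found among the 39554 genes of the series. The libraries came from SW620, a long established line of human colorectal cancer cells derived from a lymph node metastasis. Cells labelled wild type and given a control siRNA (siNC, 3 libraries) were compared with cells labelled as SOWAHA knockdown and given an siRNA against SOWAHA (siSOWAHA, 3 libraries). All 6 libraries came from cells exposed to the same transfection reagent and taken 72 h after transfection, and the groups differ in the siRNA. A further label calls all 6 a knockdown treatment, so the groups were taken from the titles. The series concerns SOWAHA, an ankyrin repeat protein gene, as a suppressor of cancer and an influence on metabolism.

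Polyamines are small positively charged molecules that bind RNA and are needed for growth. ODC1 makes putrescine from ornithine, AMD1 supplies the aminopropyl donor from S-adenosylmethionine, and SRM and SMS use that donor to build spermidine and then spermine. Antizymes send ODC1 protein to the proteasome and curb uptake, AZIN1 binds antizyme and so spares ODC1, and SAT1, PAOX and SMOX acetylate or oxidise the products. The intestinal epithelium is rich in polyamines, and ODC1 is a well known target of MYC. Much of this control acts on translation and protein decay, which RNA counts do not show.

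SOWAHA itself was lower in the siSOWAHA libraries, at 7.52, 6.85 and 8.96 CPM (counts scaled to library size) against 32.3, 39.4 and 33.8 CPM in siNC, which checks the labels. Library totals ran from 49937395 to 59474396 counts. Of 12 colorectal epithelial markers, 11 were used and 8 had a mean of at least 1 FPKM (counts scaled by gene length and library total), with KRT8 at 2167 FPKM and EPCAM at 239.6 FPKM in siNC, and CEACAM5 at 0.371, KRT20 at 0.160 and LGALS4 at 0.125 FPKM. Their summed level was 4609.8 to 4748 FPKM in siNC and 4269 to 4287 FPKM in siSOWAHA, and its part in the results was not tested. Most of this sum was KRT8, KRT18 and KRT19, at 2167, 1549 and 613 FPKM in siNC and 1968, 1487 and 493 FPKM in siSOWAHA. Of 6 fibroblast markers, COL1A2, COL3A1 and DCN stayed below 0.1 FPKM, and the sum of 22.2 to 24.1 FPKM in siNC and 25.9 to 29.5 FPKM in siSOWAHA was mostly LUM. The used leukocyte markers, LYZ and CD14, summed to 3.92 to 5.50 FPKM and the 3 endothelial markers to at most 0.320 FPKM. In such bulk RNA, fewer cells of a type and less RNA per cell cannot be told apart. Nothing in the labels says that replicate libraries stem from separate cultures or how many siRNA sequences were used, so p-values measure a spread that may be technical.

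Of the 10 polyamine genes, 7 were higher and 0 lower in the siSOWAHA libraries (adjusted p under 0.05 in edgeR's quasi-likelihood test, over 17693 genes). At an unadjusted p under 0.05 no member was lower either, and DESeq2 and limma-voom also gave 7 and 0. The risers were all 4 synthesis enzymes, the antizyme OAZ2, and the breakdown enzymes SAT1 and SMOX. The folds were small, from 1.10 for SRM to 1.27 for SAT1. Among all genes tested, 9.12% were called higher and 7.77% lower, and 16.9% were called in all. With upper-quartile factors these counts of 1614 higher and 1374 lower became 1328 and 1558, and with library totals alone 1323 and 1561, while the members stayed at 7 and 0. Leaving out a library gave 4 to 7 members higher: 4 without siNC replicate 3, 5 without siSOWAHA replicate 1 or replicate 2, and 6 without siNC replicate 1 or replicate 2. Calls were more frequent among well expressed genes, and 20.2% of the 4979 genes averaging 50 CPM or more were called higher, a level that 9 members reached. The groups did not overlap in CPM for 7 members, all higher in siSOWAHA. This held for 33% of all genes tested, in either direction and at any level of expression. The log2 fold change was above 0 for 9 members, against 48.4% of all genes, and the median was 0.18 over the members and -0.01 over all genes. All 10 members passed the filter on low counts. The members were chosen with earlier results of these data known. Their counts beside the shares of all genes are thus a description and cannot test the list.

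**Figure D1:**
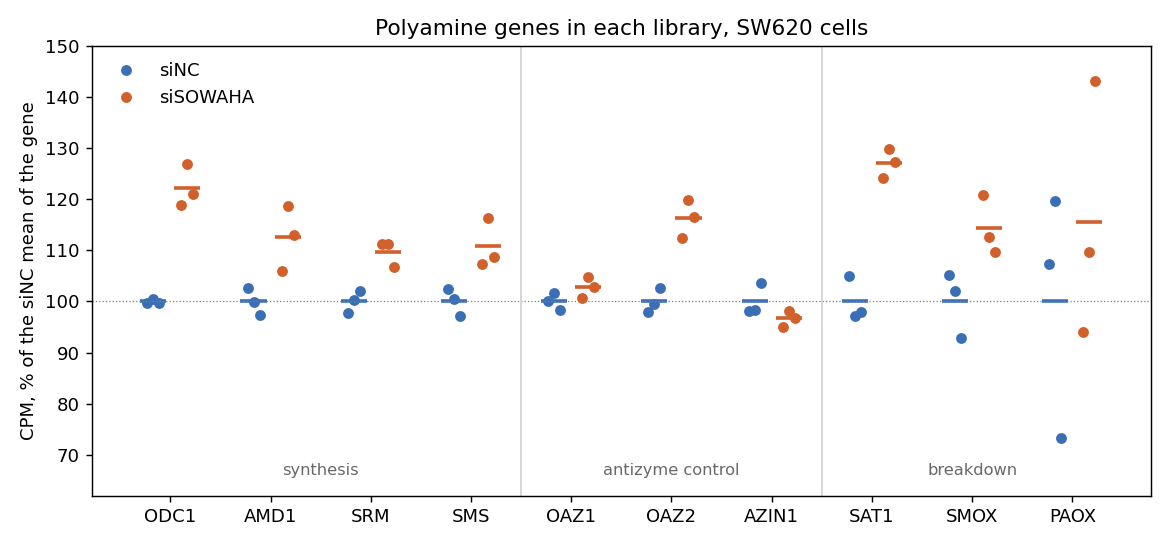
CPM of each polyamine gene in each library, as a percentage of that gene's siNC mean (vertical axis, starting at 62%), for 3 siNC and 3 siSOWAHA libraries; points are libraries and bars are means. The siSOWAHA points lie above all siNC points for 7 genes, and the groups overlap for OAZ1, AZIN1 and PAOX.

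Per length, the members spanned a wide range in the authors' FPKM values. OAZ1 was the most abundant in siNC at 375 ± 5.25 FPKM (SD, n = 3), followed by ODC1 at 210.0 ± 0.976 and SAT1 at 149 ± 6.20. SMS followed at 93.1 ± 2.20 FPKM, SRM at 72.2 ± 1.80, AMD1 at 57.5 ± 1.36 and AZIN1 at 49.7 ± 1.71. The lower end held OAZ2 at 28.9 ± 0.772 FPKM, SMOX at 25.4 ± 1.54 and PAOX at 1.12 ± 0.263. Each gene's 3 siNC values lay wholly above those of the next gene in this order. The order was the same in the siSOWAHA libraries, where OAZ1 had 381 ± 5.36, ODC1 254 ± 7.18 and SAT1 188 ± 2.99 FPKM.

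**Figure D2:**
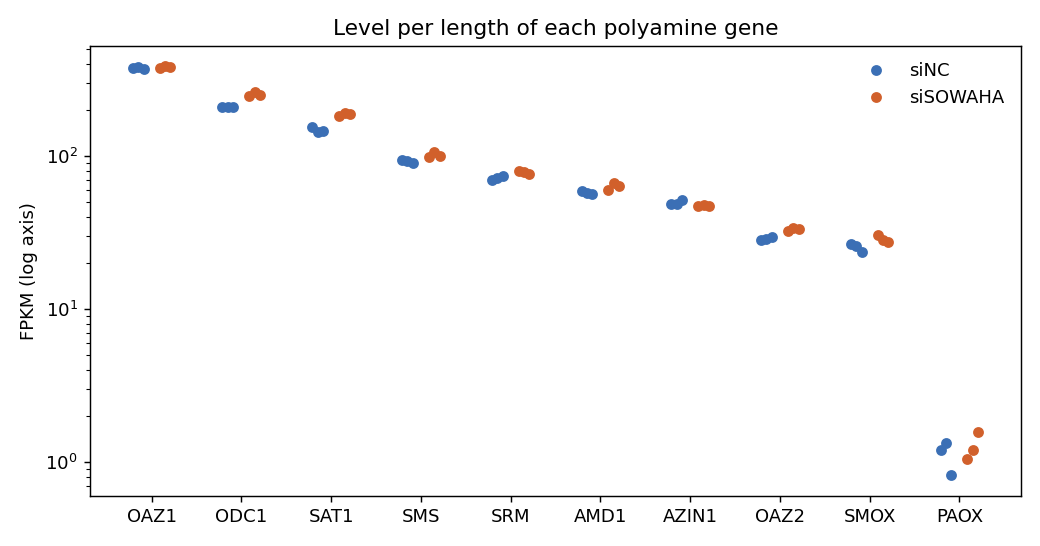
The authors' FPKM values of the 10 polyamine genes (log axis), ordered by the siNC mean; each point is a library. OAZ1 is highest at 375 FPKM, PAOX lowest at 1.12 FPKM, and the order is the same in both groups.

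The first question was whether the synthesis enzymes changed. ODC1, the ornithine decarboxylase that opens the pathway (Entrez gene 4953, GRCh38 chr2:10439968-10448327, minus strand), had 679, 684 and 679 CPM in siNC and 809, 864 and 823 CPM in siSOWAHA. The siNC values were nearly identical, and every siSOWAHA value lay above them. The mean went from 680.4 ± 2.92 to 832 ± 28.3 CPM (SD, n = 3), a log2 fold change of 0.29 (SE 0.0274, edgeR adjusted p = 3.25e-06). A change at least as large, in either direction, was called for 6.89% of all genes tested. None of the 15 alternatives ended this call, and the log2 value ranged from 0.26 to 0.31. An exact two-sided permutation test gave p = 0.1 for ODC1, the smallest that 3 against 3 libraries allow, and the same for the other 6 members that rose.

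RefSeq (GRCh38.p14) places the start of ODC1 at 2 positions, and the sequences before them are shown because ODC1 is the most abundant member that rose. The 250 bases before the first start (chr2:10448328-10448577, minus strand) hold TATAA, in capitals, at position -32 from the start. The letters CACGTG, the E-box that MYC and its partners bind, are absent from this window. They lie at position -29 from the second start, shown within 30 bases (chr2:10448024-10448053, minus strand, E-box in capitals). SRM carries CACGTG as well, at position -199 from its RefSeq start (30 bases, chr1:11060200-11060229, minus strand).
ODC1 before the first start: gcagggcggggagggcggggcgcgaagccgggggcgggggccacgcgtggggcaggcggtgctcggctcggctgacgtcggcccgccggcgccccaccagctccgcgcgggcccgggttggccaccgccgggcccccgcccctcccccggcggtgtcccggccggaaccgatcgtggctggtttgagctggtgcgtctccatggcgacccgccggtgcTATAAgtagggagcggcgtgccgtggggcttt
ODC1 before the second start: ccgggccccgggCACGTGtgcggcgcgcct
SRM E-box: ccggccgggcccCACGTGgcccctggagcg
Matches on both strands were counted in 250-base windows before the start for 7 members, ODC1, AMD1, SRM, SMS, OAZ1, OAZ2 and SAT1. No window was searched for AZIN1, SMOX or PAOX. CACGTG was found for 2 of these genes, ODC1 and SRM, and in 6.34% of the 35116 windows of all genes. TATAA was found for AMD1 and ODC1 and in 18.93% of windows, and the GC box GGGCGG for 6 of the 7 genes and in 42.64% of windows. A gene with several starts, such as ODC1 or AMD1, has several windows and so more room for a match. Counts of genes and shares of windows are thus unlike measures, and a match of letters is a description only.

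AMD1, the S-adenosylmethionine decarboxylase (Entrez gene 262, chr6:110874784-110895713, plus strand), had 235, 228 and 222 CPM in siNC and 242, 271 and 258 CPM in siSOWAHA. The groups stood apart by a narrow margin, and the siSOWAHA values were the more scattered. The log2 fold change was 0.17 (SE 0.0399, edgeR adjusted p = 0.00787), and dropping siNC replicate 3 ended the call (adjusted p = 0.0521). GENCODE 29 lists 4 pseudogenes named after AMD1, so some of its reads may be misassigned, which was not tested.

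SRM, the spermidine synthase (Entrez gene 6723, chr1:11054589-11060053, minus strand), had 112, 115 and 117 CPM in siNC and 128, 128 and 123 CPM in siSOWAHA. Its log2 fold change of 0.13 (SE 0.0379, edgeR adjusted p = 0.0241) was the smallest of the called members. Adjusted p rose to 0.102 when siNC replicate 1 was dropped, to 0.0595 for siNC replicate 2, to 0.0609 for siSOWAHA replicate 1 and to 0.0727 for siSOWAHA replicate 2, and each ended the call. SRM also has 2 pseudogenes named after it.

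SMS, the spermine synthase (Entrez gene 6611, chrX:21940709-21994837, plus strand), had 309, 303 and 293 CPM in siNC and 324, 350.3 and 328 CPM in siSOWAHA. All siSOWAHA values were above all siNC values. The log2 fold change was 0.15 (SE 0.0349, edgeR adjusted p = 0.00837), and dropping siNC replicate 3 ended the call (adjusted p = 0.0566). The FPKM of SRM over that of SMS was 0.739, 0.774 and 0.814 in siNC and 0.803, 0.742 and 0.760 in siSOWAHA. The groups overlapped, with a difference of -0.01 on the log2 scale, SD 0.070 in siNC and 0.059 in siSOWAHA (exact two-sided permutation p = 0.8).

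The next comparison covered the brake on the pathway. OAZ1, the main antizyme (Entrez gene 4946, chr19:2269486-2273488, plus strand), had 477, 484 and 468 CPM in siNC and 479.5, 499 and 489 CPM in siSOWAHA. The groups overlapped, and the fold was 1.03 (95% interval 0.987 to 1.07, edgeR adjusted p = 0.386). OAZ2, a second antizyme of lower abundance (Entrez gene 4947, chr15:64687574-64703281, minus strand), had 58.8, 59.6 and 61.5 CPM in siNC and 67.4, 71.9 and 69.9 CPM in siSOWAHA. The OAZ2 groups were clearly apart, with a log2 fold change of 0.22 (SE 0.0439, edgeR adjusted p = 0.00286), and the call held in all 15 alternatives. The FPKM of OAZ1 over that of OAZ2 was 13.3, 13.3 and 12.5 in siNC and 11.6, 11.4 and 11.5 in siSOWAHA, a fold of 0.884 without overlap (exact permutation p = 0.1).

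Both antizyme mRNAs end their first reading frame at a stop codon that ribosomes pass by shifting frame when polyamines are abundant, so that RNA level is only a part of antizyme output. The shift site is shown because it is the feature that marks these transcripts as polyamine sensors. The capitals mark the last codon of the first frame and the stop codon, in 30 bases of a coding OAZ1 transcript (exon 2, chr19:2271428-2271457, plus strand) and of an OAZ2 transcript annotated without a coding sequence (exon 2, chr15:64691501-64691530, minus strand), both from GENCODE 29.
OAZ1: cctcggtggtgcTCCTGAtgcccctcaccc
OAZ2: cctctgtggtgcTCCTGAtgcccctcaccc
Counted from 1 at the 5′ end, the pair differ by G5T (the OAZ1 base first), outside the capitals.

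The ratio of ODC1 to its main inhibitor was compared within each library, where scaling between libraries has no effect. The FPKM of ODC1 over that of OAZ1 was 0.557, 0.554 and 0.569 in siNC and 0.661, 0.678 and 0.659 in siSOWAHA. All 3 siSOWAHA ratios were higher, by a fold of 1.19 (0.25 on the log2 scale, SD 0.020 in siNC and 0.022 in siSOWAHA). The exact two-sided permutation p was 0.1, and 0.175 adjusted over the 7 ratios tested, so no ratio can pass 0.05 with 3 libraries a group. The FPKM of AMD1 over that of ODC1 was 0.282, 0.272 and 0.267 in siNC and 0.244, 0.256 and 0.256 in siSOWAHA, a fold of 0.92 without overlap (p = 0.1 by the same exact test). Relative to OAZ1 and to AMD1, ODC1 was thus higher in all 3 siSOWAHA libraries than in any siNC library.

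AZIN1, the antizyme inhibitor, resembles ODC1 but lacks its activity (Entrez gene 51582, chr8:102826302-102864200, minus strand). It had 239.6, 240.2 and 253 CPM in siNC and 232, 239.9 and 237 CPM in siSOWAHA. It was the only member with a log2 fold change below 0, at -0.05 (SE 0.0330, edgeR adjusted p = 0.371), and the groups overlapped in CPM. The fold was 0.967, with a 95% interval of 0.921 to 1.01. In FPKM, which lack the composition factors, the AZIN1 groups did not overlap (48.7, 48.8 and 51.7 against 47.0, 48.0 and 47.6), and limma gave an adjusted p of 0.21. The FPKM of AZIN1 over that of OAZ1 was 0.130, 0.128 and 0.140 in siNC and 0.125, 0.124 and 0.125 in siSOWAHA, a fold of 0.941 (exact permutation p = 0.1). The siNC replicate 3 ratio was the highest, and without that library the log2 difference moved from -0.09 to -0.05, and the AZIN1 log2 fold change from -0.05 to -0.02.

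**Figure D3:**
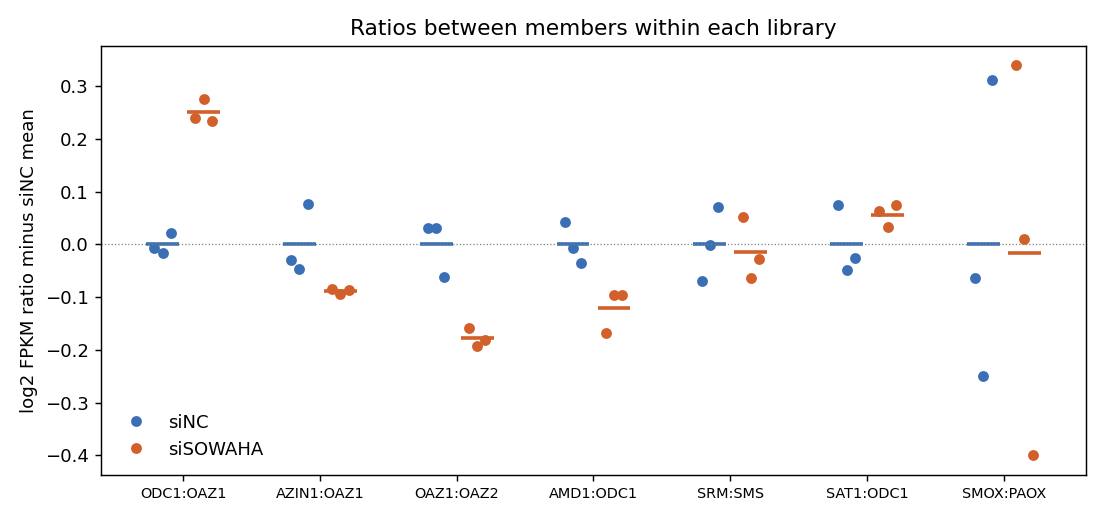
Log2 FPKM ratios between pairs of polyamine genes in each library, minus the siNC mean of the ratio; points are libraries and bars are means. ODC1:OAZ1 is higher by 0.25 in siSOWAHA without overlap, OAZ1:OAZ2, AMD1:ODC1 and AZIN1:OAZ1 are lower without overlap, and the groups overlap for SRM:SMS, SAT1:ODC1 and SMOX:PAOX.

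The last group of members breaks polyamines down or turns them back. SAT1, the acetyltransferase that marks spermidine and spermine for export or oxidation (Entrez gene 6303, chrX:23783173-23786210, plus strand), had the largest called change of the members. It had 420.0, 389 and 391 CPM in siNC and 497, 519 and 509 CPM in siSOWAHA, so that the lowest siSOWAHA value was well above the highest siNC value. The mean went from 400.0 ± 17.4 to 508 ± 11.2 CPM (SD, n = 3), a log2 fold change of 0.35 (SE 0.0328, edgeR adjusted p = 3.42e-06). None of the 15 alternatives ended this call, and the log2 value ranged from 0.325 to 0.38. The FPKM of SAT1 over that of ODC1 was 0.749, 0.687 and 0.697 in siNC and 0.742, 0.727 and 0.748 in siSOWAHA. These overlapped, with a fold of 1.04 (exact permutation p = 0.4). The smallest p this test can give is 0.1, so it cannot decide whether the changes of SAT1 and ODC1 differ.

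The sequence before the SAT1 start is shown because SAT1 rose most and, unlike ODC1 and SRM, holds no GC box there (chrX:23782923-23783172, plus strand, RefSeq, GRCh38.p14). Capitals mark CCAAT on either strand, at positions -79 and -13 from the start.
SAT1: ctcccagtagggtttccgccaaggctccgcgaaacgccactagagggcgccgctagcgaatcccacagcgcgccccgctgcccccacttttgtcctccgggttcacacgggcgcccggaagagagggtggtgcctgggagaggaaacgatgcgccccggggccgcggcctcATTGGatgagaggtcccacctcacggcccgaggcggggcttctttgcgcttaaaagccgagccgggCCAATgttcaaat
CCAAT was found for 5 of the 7 members searched, AMD1, OAZ1, SAT1, SMS and SRM, and in 32.01% of all windows. For AMD1 it lay before a RefSeq start at chr6:110814617, outside the span given for AMD1 above. The windows before the AMD1 starts at 110874784 and 110874785 held 0 matches to CCAAT. The E-box, TATAA and the GC box named above are not among the letters of this SAT1 window.

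SMOX, the spermine oxidase, turns spermine back to spermidine and releases hydrogen peroxide (Entrez gene 54498, chr20:4148828-4187732, plus strand). It had 70.3, 68.3 and 62.1 CPM in siNC and 80.9, 75.4 and 73.3 CPM in siSOWAHA. The groups were apart by a small gap, with siNC replicate 3 the lowest, and the log2 fold change was 0.19 (SE 0.0536, edgeR adjusted p = 0.0212). Dropping siNC replicate 3 ended the call (adjusted p = 0.117), as did dropping siSOWAHA replicate 1 (0.0952) or siSOWAHA replicate 2 (0.0507).

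PAOX, the peroxisomal oxidase of acetylated polyamines (Entrez gene 196743, chr10:133379262-133391694, plus strand), was the least abundant member. It had 2.48, 2.77 and 1.70 CPM in siNC and 2.18, 2.54 and 3.32 CPM in siSOWAHA. These overlapped, and the fold of 1.16 had a 95% interval of 0.816 to 1.64 (edgeR adjusted p = 0.634), which includes the 1.27 of SAT1. The FPKM of SMOX over that of PAOX ranged from 19.5 to 28.8 in siNC and from 17.6 to 29.3 in siSOWAHA.

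In the authors' FPKM values, limma on log2(FPKM + 1) called 6 members higher and 0 lower, against 20.7% of 12027 genes called in either direction. SMOX was the member that differed between the tests, at 0.17 (adjusted p = 0.0514). The number of members called higher was 3 with no filter on low values, without siNC replicate 2 or without siSOWAHA replicate 2. Both tables come from the same reads.

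The wider pathway was described from lists of 49 other genes, of which 43 passed the filter on low counts. Of these 9 were higher and 3 lower, and their median log2 fold change was 0.07. Among all genes 9.12% were called higher, or 20.2% of those averaging 50 CPM or more, and 7.77% lower. The number lower was 5 with upper-quartile factors, with library totals alone or with a filter of 1 CPM. The lists were supply of ornithine, supply of S-adenosylmethionine, the eIF5A modification, transport, MYC with its partners, and other enzymes of synthesis and breakdown. The shares of all genes given above also stand beside the count of each list below. These lists too were chosen with earlier results of these data known, so the counts are a description.

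Of 6 ornithine supply genes tested, 2 were higher and 0 lower. ARG2, the mitochondrial arginase that makes ornithine, had 43.6, 44.3 and 39.1 CPM in siNC and 49.6, 51.4 and 55.0 CPM in siSOWAHA (log2 fold change 0.30, SE 0.059, edgeR adjusted p = 0.00264). OAT, which interconverts ornithine and glutamate semialdehyde, was more abundant, with 255, 239 and 234 CPM in siNC and 273, 297 and 286 CPM in siSOWAHA (0.24, SE 0.0388, adjusted p = 0.000599). Neither gene's groups overlapped. ALDH18A1, which opens synthesis of ornithine and proline from glutamate, was at 0.04 (adjusted p = 0.489).

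Of 7 genes of S-adenosylmethionine supply and methylthioadenosine salvage, 1 was higher and 1 lower. MAT2A, the enzyme that makes S-adenosylmethionine, fell, from 619, 582 and 626 CPM in siNC to 544, 523 and 527 CPM in siSOWAHA (log2 fold change -0.20, SE 0.0308, edgeR adjusted p = 0.000403). MTAP, which recycles the methylthioadenosine left by SRM and SMS, rose, from 117, 114 and 115 CPM to 131, 143 and 130.2 CPM (0.22, SE 0.0423, adjusted p = 0.00187). The groups of both genes were apart, in opposite directions. ENOPH1, a later salvage enzyme, was at 0.08 (adjusted p = 0.205).

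Spermidine is also the source of hypusine, an amino acid found in eIF5A. Of 4 genes of this modification, 1 was higher and 0 lower. EIF5A itself had 995, 1012 and 1000 CPM in siNC and 1052, 1096 and 1092 CPM in siSOWAHA, without overlap (log2 fold change 0.11, SE 0.0243, edgeR adjusted p = 0.00646). The call held in all 15 alternatives, but its reads are uncertain, since the genome holds near-identical copies of this gene. DHPS, which starts the modification, was at -0.10 (SE 0.0518, adjusted p = 0.246) and DOHH, which completes it, at 0.02 (adjusted p = 0.873).

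Of 11 transport genes, 3 were higher and 1 lower. SLC18B1, a vesicular polyamine transporter, had 70.7, 66.9 and 67.5 CPM in siNC and 78.4, 82.4 and 79.3 CPM in siSOWAHA (log2 fold change 0.23, SE 0.0438, edgeR adjusted p = 0.00206). ATP13A3, an ATPase tied to polyamine uptake, was higher by 0.13 (adjusted p = 0.0128), and SLC3A2, a transporter heavy chain linked to polyamine export, by 0.09 (adjusted p = 0.0324). CAV1, caveolin, was lower by -0.24 (adjusted p = 0.0124). Of these 4, the SLC18B1 call alone held in every alternative. For ATP13A3 it ended on dropping siNC replicate 2 (adjusted p = 0.0556), on dropping siNC replicate 3 (0.0683) and on dropping siSOWAHA replicate 3 (0.0785), and for CAV1 on dropping siNC replicate 1 (0.063), siNC replicate 2 (0.055) or siSOWAHA replicate 3 (0.0564). SLC3A2 was lost with upper-quartile factors (0.0748), with library totals alone (0.0676) and without each library other than siSOWAHA replicate 3 (0.0575 to 0.117).

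Of 10 genes of MYC and its partners, 2 were higher and 0 lower. MYC had 388, 393 and 385 CPM in siNC and 476, 448 and 435 CPM in siSOWAHA, with no overlap (log2 fold change 0.22, SE 0.0327, edgeR adjusted p = 0.000237). MLX, a partner of the MAX network, was at 0.16 (adjusted p = 0.0449), and the call was lost with the replicate block (0.0635), with upper-quartile factors (0.0662), with library totals alone (0.0721), with limma-voom (0.0513) and without each library other than siSOWAHA replicate 3 (0.076 to 0.164).

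Of the 5 other enzymes of synthesis and breakdown, 0 were higher and 1 lower. AOC1, the secreted diamine oxidase that degrades putrescine outside the cell, had 6.54, 5.48 and 5.80 CPM in siNC and 3.24, 3.87 and 4.16 CPM in siSOWAHA. All siSOWAHA values were below all siNC values (log2 fold change -0.66, SE 0.159, edgeR adjusted p = 0.00952), and the call was lost without siNC replicate 1 (0.0581). SAT2, a relative of SAT1, had 28.1, 30.4 and 27.3 CPM in siNC and 32.2, 29.5 and 31.3 CPM in siSOWAHA, which overlapped (0.12, SE 0.0673, adjusted p = 0.288).

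**Figure D4:**
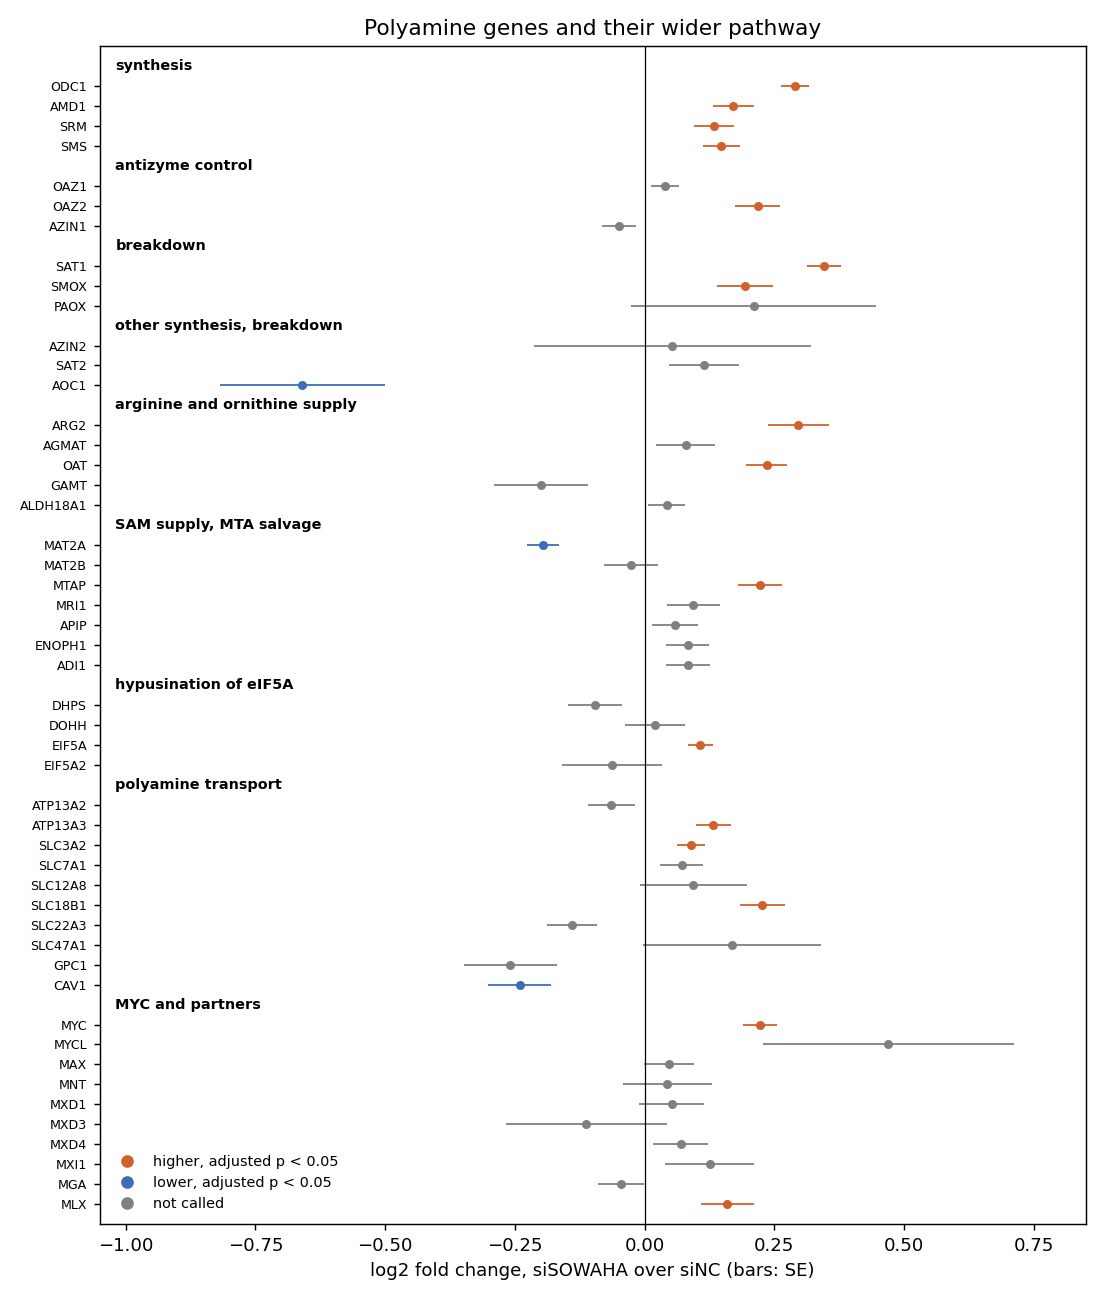
Log2 fold changes (siSOWAHA over siNC, horizontal axis) with SE of the 10 polyamine genes and of 39 other pathway genes averaging 1 CPM or more, by list; colour marks edgeR adjusted p under 0.05. The synthesis enzymes, OAZ2, SAT1 and SMOX lie to the right of 0, and AOC1 at -0.66 is the lowest of the genes shown.

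By the root-mean-square difference between centred log2 CPM over the 6 libraries, the genes most like ODC1 among 11309 averaging 5 CPM or more were POLR2C (0.011), ARHGAP5 (0.016) and the gene the authors' table names GTF2H1_1 (0.018). Those most like SAT1 were RLIM (0.022), DENND5A (0.023) and LPP (0.026). ODC1 and SAT1 differed from each other by 0.049. ODC1 overlaps the small nucleolar RNA gene SNORA80B on its own strand, which was listed at 0.924 FPKM in siNC and 0.629 FPKM in siSOWAHA. These are means of low values, and reads in a shared stretch cannot be assigned to either gene with certainty. The divergent transcript ODC1-DT, chosen after its values were seen, had 0.915, 1.33 and 1.39 CPM in siNC and 1.38, 0.939 and 1.55 CPM in siSOWAHA, which overlapped (edgeR adjusted p = 0.895).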

How the data were processed

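RNA was measured in 3 siNC and 3 siSOWAHA libraries of SW620 cells, grouped and numbered by their titles. Per the labels' protocols, poly(A) RNA was made into strand-specific libraries and read as pairs. The submitters' processing notes name cutadapt 1.9, FastQC and GRCh38. Which aligner, counter, strand setting and annotation the authors used is not given in the sources used here. Raw counts were deposited by the authors for 39554 genes, and FPKM values beside the same counts for 24901 genes; FPKM are per length and per library total, so they lack composition factors.

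Counts were tested with edgeR 4.0.16 under R 4.3.3 (filterByExpr filter, TMM factors, robust quasi-likelihood F test, two-sided, Benjamini-Hochberg over 17693 genes, threshold 0.05). CPM use TMM factors, and the SE is the log2 fold change over the square root of F; 95% intervals use its t distribution. FPKM were tested with limma 3.58.1 on log2(FPKM + 1), for genes of at least 1 FPKM in 3 libraries. Ratios used exact permutation tests in R. Both fits were tested on simulated data. Depth was 49937395 to 59474396 counts, and replicates varied beyond counting error (chi-square per degree of freedom 7.82 to 14.0). Every member is named, with other pathway genes that passed and up to 2 of the highest FPKM per list. Listed genes with a suffixed name in the table (EIF5A, ADI1, KRT20, LGALS4) were matched by Entrez ID. Members and lists were chosen with earlier results of these data known. Alternatives were other scaling, filters, DESeq2 1.42.0, limma-voom, a threshold of 0.01, the replicate block and each library left out.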

Additional observations from a re-analysis of the deposited data

How the results depend on the processing

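No member changed direction in any of the 15 alternatives to the count test. Of the members' values under these alternatives, 139 kept their side of the threshold and 11 lost a call, all for SRM, SMOX, AMD1 or SMS. The number of members called higher was 7 in every scaling, filter and tool and with the replicate block, 5 at a threshold of 0.01, and 4 to 7 when a library was left out, with 4 without siNC replicate 3; the number lower was 0 throughout. Other pathway genes called lower were 5 with upper-quartile factors, with library totals alone and with a filter of 1 CPM, where GPC1 and SLC22A3 joined. Those called higher were 6 at the threshold of 0.01 and 6 to 8 with a library left out. Over all genes, 863 were higher and 693 lower at 0.01, and 1075 to 1453 higher and 871 to 1225 lower with a library left out. In FPKM, 3 members were called higher with no filter and 3 to 5 with a library left out. With the replicate block, 1416 genes were higher and 1183 lower. The labels state no pairing of the samples. Same-numbered libraries had deviations correlated at -0.37, -0.09 and -0.05. These deviations were centred within each group of 3, so the correlations cannot show whether samples were paired. Among the members the largest SE, 0.237, was that of PAOX, whose libraries were scattered.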
